A study of Mus musculus with 6 samples.

Results

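The genes described here are 10 germline genes that guard the genome against transposons, among 43629 genes counted in cultured mouse keratinocytes. They are Asz1, Mael, Tex19.1, Gtsf1, Ddx4, Tdrd1, Tdrkh, Piwil2, Mov10l1 and Dazl, and they were set beside the reads of retroelements in the same libraries. All 10 had an entry in the gene count table. The genes were picked from a list of the PIWI-interacting RNA (piRNA) pathway and germline genome defence when their counts in these libraries were already known. Their own values are therefore given as a description, without a test. The reads of retroelements were part of that choice too, and are described in the same way.

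RNA came from keratinocytes of 3 control and 3 Dnmt1Δ/Δep mice, one library from each, and the comparison asked which genes respond to the loss of the DNA methyltransferase DNMT1 in these cells themselves. Dnmt1Δ/Δep mice were K5-Cre+ Dnmt1 f/f, so that Cre, expressed from the Keratin 5 promoter from embryonic development onward, removed Dnmt1 in the epidermis. Control mice carried Dnmt1 f/f or Dnmt1 f/+ alleles without Cre, and the labels do not say which control library had which. All mice were female according to the labels and were kept on a mixed C57BL/6J and 129SV background. Epidermis was taken at postnatal day 3 (P3), and the cells were grown in keratinocyte growth medium with chelated fetal calf serum on collagen-fibronectin coated dishes for 5 days according to the labels. A Keratin 5 driven Cre acts in basal keratinocytes and not in melanocytes, leukocytes or fibroblasts that can be carried over from the skin, and in bulk RNA a larger number of expressing cells and more RNA per cell cannot be told apart.

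In germ cells, piRNAs guide PIWI proteins to transposon transcripts, which are cut in the cytoplasm, and in fetal male germ cells a nuclear arm of the pathway directs DNA methylation to the same elements. The machinery sits in perinuclear granules, called nuage, and on the surface of mitochondria. Many genes of this pathway have CpG-rich promoters that are methylated in somatic cells, and keratinocytes are not known to use the pathway.

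Gene reads per library lay between 53433121 and 115526598. Dnmt1 itself had 37300, 36914 and 17381 counts in control and 2961, 4698 and 5983 in Dnmt1Δ/Δep libraries, with no overlap after scaling by library size. Its log2 fold change was -2.83 (SE 0.11, adjusted p = 8.1e-05 in the quasi-likelihood test of edgeR). A gene was called upregulated or downregulated where it moved by 1 or more on the log2 scale with an adjusted p no higher than 0.05. Of 16829 genes tested, 6.03% were upregulated and 0.392% downregulated. Markers of 6 cell types were summed in CPM, counts per 1000000 gene reads. The 6 keratinocyte markers summed to 27040 to 30400 CPM in control libraries and 19510 to 20160 in Dnmt1Δ/Δep libraries, with Krt5 and Krt14 the most abundant in every library. The 6 germ cell markers were at 0.242 to 0.267 CPM and at 0.220 to 0.403 CPM, respectively, and 1 of the 6, Nanos3, had enough reads to be tested and was not called. Melanocyte markers summed to 221 to 564 CPM in control libraries and 676 to 898 in Dnmt1Δ/Δep libraries with 0 of 6 called, and leukocyte markers to 0.370 to 0.894 and 2.36 to 4.14 CPM, with both of the 2 that could be tested upregulated, Csf1r and Itgam. Endothelial markers summed to 5.36 to 17.6 and 15.1 to 23.6 CPM, with Pecam1 and Cdh5 upregulated of 5 tested, and fibroblast markers to 12.2 to 28.0 and 12.0 to 58.8 CPM with 0 of 6 called. The part of these cell types in the results below was not tested.

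The promoters of 4 of the genes are shown first, for the contrasts between them. Each covers 250 bases before to 50 bases after the start of the gene in RefSeq (GRCm38.p6), printed 5′ to 3′ on the gene's strand with every CpG in capitals. Tex19.1 was the most abundant of the genes in Dnmt1Δ/Δep keratinocytes, Gtsf1 had no read in any control library, and Mael and Ddx4 carry the same pair of motifs while only Mael was separated between the groups. The windows are chr11:121145893-121146192 (plus strand) for Tex19.1, chr15:103430378-103430677 (minus) for Gtsf1, chr1:166238695-166238994 (minus) for Mael and chr13:112652261-112652560 (minus) for Ddx4.
Tex19.1: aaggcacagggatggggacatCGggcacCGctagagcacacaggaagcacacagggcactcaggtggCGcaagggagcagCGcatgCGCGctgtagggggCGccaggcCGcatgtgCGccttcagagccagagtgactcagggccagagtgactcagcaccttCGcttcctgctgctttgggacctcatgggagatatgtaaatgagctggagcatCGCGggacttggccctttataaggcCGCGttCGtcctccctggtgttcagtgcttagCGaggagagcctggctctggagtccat
Gtsf1: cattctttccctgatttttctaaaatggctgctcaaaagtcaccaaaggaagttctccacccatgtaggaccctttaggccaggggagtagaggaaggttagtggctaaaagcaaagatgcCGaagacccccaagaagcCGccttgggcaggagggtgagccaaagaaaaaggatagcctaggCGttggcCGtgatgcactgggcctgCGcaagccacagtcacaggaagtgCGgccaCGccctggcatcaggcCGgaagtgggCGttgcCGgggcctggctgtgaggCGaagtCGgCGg
Mael: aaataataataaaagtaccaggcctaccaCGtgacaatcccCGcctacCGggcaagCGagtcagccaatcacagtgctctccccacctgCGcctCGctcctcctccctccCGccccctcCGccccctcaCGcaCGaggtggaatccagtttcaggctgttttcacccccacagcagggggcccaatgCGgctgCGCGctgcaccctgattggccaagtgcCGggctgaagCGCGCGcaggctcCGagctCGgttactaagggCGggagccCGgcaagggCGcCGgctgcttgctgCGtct
Ddx4: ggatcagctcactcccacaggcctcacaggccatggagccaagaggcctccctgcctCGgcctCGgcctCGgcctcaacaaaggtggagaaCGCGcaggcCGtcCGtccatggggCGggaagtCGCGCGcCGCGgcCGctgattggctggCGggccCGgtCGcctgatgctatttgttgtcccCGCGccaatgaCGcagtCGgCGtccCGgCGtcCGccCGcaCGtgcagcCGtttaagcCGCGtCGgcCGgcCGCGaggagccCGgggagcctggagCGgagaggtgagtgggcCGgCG

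A promoter entry was found for 9 of the 10 genes, all except Piwil2. Their windows held 13 CpG in Gtsf1, 16 in Tex19.1, 17 in Asz1, 20 in Tdrd1 and in Mov10l1, 24 in Mael, 25 in Tdrkh, 28 in Dazl and 38 in Ddx4. The median was 20, beside a median of 7 and quartiles of 3 and 20 over the promoters of 27025 genes. Every one of the 9 windows was thus above the median gene, and 61.5% of all promoters had fewer CpG than the lowest, that of Gtsf1. Ddx4, with more CpG than 95.2% of all promoters, was the gene of the 10 with the lowest level in Dnmt1Δ/Δep libraries. Among the other piRNA pathway genes described below, the 6 upregulated genes with an entry had a median of 12 CpG (2 to 35), and the 16 entries of genes that were not upregulated or not tested a median of 18.

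**Figure D1:**
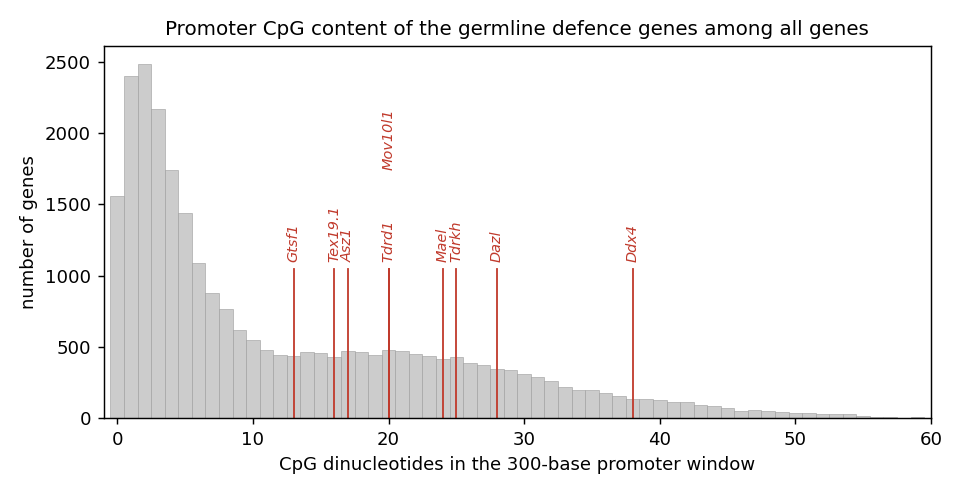
Number of genes (y axis) by the number of CpG dinucleotides in the 300-base promoter window (x axis) for 27025 genes, in grey, with red lines at the 9 germline defence genes that had an entry. The lines run from 13 CpG in Gtsf1 to 38 in Ddx4, all to the right of the median of 7.

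A pair of motifs known as binding sites of repressors of germline genes were searched in the windows on both strands. The E-box CACGTG, bound by MAX with its partner MGA, was in 4 of 9 windows (Mael, Ddx4, Tdrd1 and Mov10l1), and in 7.24% of all promoters. It was in 1 of 6 entries of the upregulated piRNA pathway genes outside the 10 and in 5 of 16 of the others. The core GCGGGA, bound by E2F factors such as E2F6, was in 3 of 9 windows (Mael, Tex19.1 and Ddx4), and in 20.1% of all promoters. Mael and Ddx4 held both, which 2.05% of all promoters did. In Mael the E-box began 223 bases before the start of the gene and the E2F core 143 before it and again 12 after it. In Ddx4 they began 29 and 136 bases before the start, and in Tex19.1 the E2F core began 33 bases before it. The E-boxes of Tdrd1 and Mov10l1 began 11 and 246 bases before their starts. These letters are a match and do not show that a factor was bound.

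The PIWI protein and the helicase that feeds it were both higher in every Dnmt1Δ/Δep library than in any control library. Piwil2 (ENSMUSG00000033644, chr14:70372477-70429383 on GRCm38) encodes MILI, a PIWI protein that binds piRNAs in the cytoplasm and cuts their targets. It had 1.27, 0.852 and 0.931 CPM in control replicates 1, 2 and 3, and 10.8, 8.33 and 11.3 CPM in Dnmt1Δ/Δep replicates 1, 2 and 3. Control keratinocytes thus had Piwil2 reads in every library, 50 to 120 of them, and the log2 fold change was 3.31 (SE 0.23). Mov10l1 (ENSMUSG00000015365, chr15:88982909-89055152) encodes the RNA helicase that hands piRNA precursors to the processing machinery. Its counts were 0, 2 and 1 in control and 125, 112 and 252 in Dnmt1Δ/Δep libraries. With so few control reads, the change is given as a ratio of pooled counts per gene read, which was 152 with a 95% exact interval of 51.6 to 738. This interval and those of the same kind below cover counting error only.

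A pair of genes place the machinery on mitochondria, and they started from different levels. Asz1 (ENSMUSG00000010796, chr6:18050964-18109061) encodes GASZ, a mitochondrial membrane protein of the nuage between mitochondria. It had 0, 0 and 2 counts in control and 321, 349 and 761 in Dnmt1Δ/Δep libraries, a pooled ratio of 666 (95% exact interval 184 to 5504). Tdrkh (ENSMUSG00000041912, chr3:94413273-94434668) encodes a tudor protein on mitochondria that takes part in trimming the 3′ ends of piRNAs. It had 0.275, 0.369 and 0.298 CPM in control libraries and 1.28, 0.717 and 1.51 CPM in Dnmt1Δ/Δep libraries, a log2 fold change of 1.89 (SE 0.36). Dnmt1Δ/Δep replicate 2 stood below the other Tdrkh values of its group, though still above every control library. Of the Tdrkh exons, 36.7% overlap Oaz3 on the other strand, and the counting is not stated to use strand, so Tdrkh and Oaz3 reads cannot be told apart there. Oaz3 itself had 0, 1 and 1 counts in control and 3, 1 and 1 in Dnmt1Δ/Δep libraries.

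The granule proteins that hold or assist PIWI proteins differed in their control level. Tdrd1 (ENSMUSG00000025081, chr19:56826209-56870012), a tudor scaffold that binds methylated arginines of PIWI proteins, had 1.25, 1.53 and 1.68 CPM in control libraries. In Dnmt1Δ/Δep libraries it had 3.49, 4.67 and 4.37 CPM, and its log2 fold change of 1.50 (SE 0.22) was the smallest among the 9 genes that could be fitted. Gtsf1 (ENSMUSG00000022487, chr15:103402405-103430470), a small zinc finger protein that assists PIWI proteins in cutting, had no read in any control library and 353, 360 and 559 in Dnmt1Δ/Δep libraries. Against a floor of 3 counts per control library, Gtsf1 was at least 125-fold higher. Mael (ENSMUSG00000040629, chr1:166201201-166238747), a nuage protein needed to silence LINE-1 elements in male germ cells, had 0, 1 and 0 counts in control and 17, 24 and 72 in Dnmt1Δ/Δep libraries. Its pooled ratio was 105 (95% exact interval 18.5 to 4190), and its reads remained few even where they were highest.

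Ddx4 was the exception among the 10 genes. Ddx4 (ENSMUSG00000021758, chr13:112598333-112652475) encodes the mouse homologue of Vasa, the helicase of germ granules that is used as a marker of germ cells. It had 6, 4 and 0 counts in control and 2, 9 and 21 in Dnmt1Δ/Δep libraries, and the groups overlapped. Its reads were too few for the filter on low counts, so it was not fitted. The pooled ratio was 2.98 (95% exact interval 1.43 to 6.79), but Dnmt1Δ/Δep replicate 1, with 0.0336 CPM, lay below control replicates 1 and 2, with 0.0634 and 0.0410 CPM.

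The last 2 genes act around the pathway and differed widely in level. Tex19.1 (ENSMUSG00000039329, chr11:121146143-121148319) is a mammal-specific gene that restrains retrotransposons in germ cells, pluripotent cells and placenta. It had 0.116, 0.298 and 0.484 CPM in control libraries and 85.8, 83.4 and 94.0 CPM in Dnmt1Δ/Δep libraries, a log2 fold change of 8.29 (SE 0.40). The fold within replicate numbers was 738, 280 and 194, and it was the control libraries that differed, since the Dnmt1Δ/Δep values had a coefficient of variation of 6.34%. Dazl (ENSMUSG00000010592, chr17:50279395-50293636), an RNA-binding protein that controls translation in germ cells, had 3, 0 and 0 counts in control and 117, 69 and 294 in Dnmt1Δ/Δep libraries. The pooled ratio of Dazl was 149 (95% exact interval 50.7 to 725), and its coefficient of variation over the Dnmt1Δ/Δep libraries was 49.5%.

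**Figure D2:**
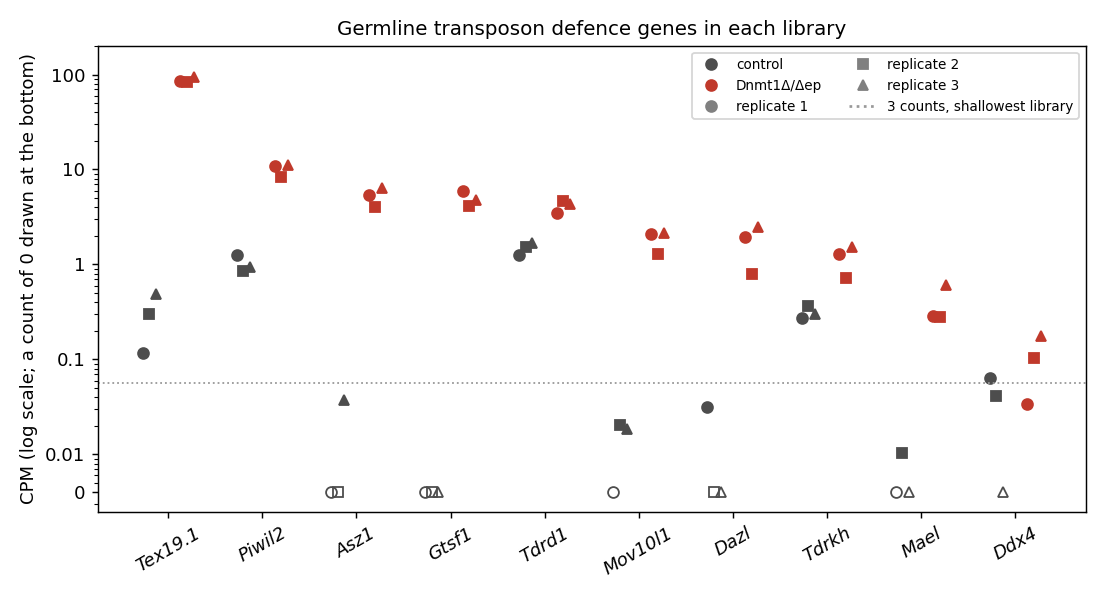
CPM on a log axis for each of the 10 genes (x axis, ordered by level in Dnmt1Δ/Δep libraries), with control libraries in grey, Dnmt1Δ/Δep libraries in red, a symbol per replicate number, open symbols for a count of 0 and a dotted line at 3 counts in the shallowest library. The red and grey symbols are apart for 9 genes and overlap for Ddx4, and Tex19.1 stands at 83.4 to 94.0 CPM.

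In all, 9 of the 10 genes passed the filter on low counts and 9 had groups that did not overlap, all with the Dnmt1Δ/Δep libraries higher, beside 29.9% of all tested genes without overlap in either direction. The same 9 were past both thresholds of a call, beside 6.03% of all genes tested. Since these values chose the genes, nothing is read from either count. For 5 of the 9 (Asz1, Mael, Gtsf1, Mov10l1 and Dazl), no control library reached the minimum count, so that they entered the fit only through the Dnmt1Δ/Δep libraries and had to differ. Among the Dnmt1Δ/Δep libraries, replicate 3 had the highest CPM for 8 of the 10 genes and replicate 2 the lowest for 8 of the 10.

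Levels were compared between genes per length of exons, as RPKM, the CPM per kilobase. Tex19.1 had 46.9 ± 2.97 RPKM in Dnmt1Δ/Δep keratinocytes (SD, n = 3), more than 92.9% of all tested genes. Gtsf1 followed with 3.56 ± 0.645 RPKM, then Piwil2 with 1.92 ± 0.299 and Asz1 with 1.87 ± 0.428 RPKM (SD, n = 3), and the last 2 did not differ beyond their spread. Tdrd1 had 0.768 ± 0.113 RPKM, Dazl 0.458 ± 0.227 and Mov10l1 0.441 ± 0.113 RPKM (SD, n = 3), and Dazl and Mov10l1 again lay within each other's spread. The lowest were Mael with 0.226 ± 0.110, Tdrkh with 0.190 ± 0.0662 and Ddx4 with 0.0349 ± 0.0240 RPKM (SD, n = 3), and Mael and Tdrkh did not differ beyond their spread. In control libraries the order was another, with Tdrd1 at 0.273, Piwil2 at 0.192 and Tex19.1 at 0.160 RPKM on average and every gene under the level of 1 RPKM at which the study took a gene as expressed. In each Dnmt1Δ/Δep library 4 of the 10 genes were at or above 1 RPKM, and Tex19.1 alone made up 81.7% to 85.3% of their summed RPKM. Without Tex19.1 the other 9 genes summed to 0.527 to 0.550 RPKM in control and 7.69 to 10.4 RPKM in Dnmt1Δ/Δep libraries.

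To see how far the rest of the pathway went with these genes, 32 other piRNA pathway genes were taken from a list, of which 31 were in the table and 22 had enough reads to be tested. Of the 22, 7 were upregulated, 0 were downregulated and 15 were not called, beside 6.03% of all genes upregulated. With replicate number as a block 11 of the 22 were upregulated. Without control replicate 1, 27 genes of the list could be tested and 11 were upregulated, 3 of which (Btbd18, Piwil4 and Stk31) were not among the 22. The median log2 fold change of the 22 was 1.36, beside -0.00 over all genes tested, and 16 of 22 were above 0. At an unadjusted p under 0.05 with the same fold, edgeR gave 13 up and 1 down, beside 9.54% and 0.897% of all genes, the latter Pld6, a mitochondrial nuclease of piRNA biogenesis, at a log2 fold change of -1.14 (adjusted p = 0.16 in edgeR). At the adjusted threshold, DESeq2 called 11 of the 22 up and 0 down. The list was written with earlier results of these libraries known, and its share is not independent evidence of a direction. Of the 7 upregulated genes, 4 (Tdrd12, Tex19.2, Fkbp6 and Gpat2) passed the filter only through the Dnmt1Δ/Δep libraries, beside 333 of 444 such genes called in the whole table, so that they had to differ and are given below without a p. Among genes with a mean of at least 1 CPM over the 6 libraries, a level set after seeing the data, 4 of 12 on the list (33.3%) and 4.43% of all genes were upregulated, but 2 of those 4, Gpat2 and Tex19.2, reached that mean only through the Dnmt1Δ/Δep libraries.

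The upregulated genes of the list act at several steps. Tdrd12, a tudor helicase that supports the making of secondary piRNAs, had 2, 3 and 2 counts in control and 36, 44 and 131 in Dnmt1Δ/Δep libraries (log2 fold change 4.63, SE 0.52). Fkbp6, a co-chaperone that works with HSP90 in piRNA production, had 0, 0 and 1 counts in control and 34, 26 and 78 in Dnmt1Δ/Δep libraries. Gpat2, a mitochondrial membrane protein of primary piRNA production, had 4, 7 and 3 against 139, 129 and 353 counts (log2 fold change 5.29, SE 0.42). Tdrd12, Fkbp6 and Gpat2 thus had single-digit counts in control libraries, as Asz1, Mael, Mov10l1 and Dazl did.

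Pnldc1, the nuclease that trims the 3′ ends of piRNAs together with TDRKH, went from 1.16 ± 0.202 to 2.81 ± 0.594 CPM (SD, n = 3), with a log2 fold change of 1.28 (SE 0.26, adjusted p = 0.024 in edgeR). Without control replicate 2, Dnmt1Δ/Δep replicate 1 or Dnmt1Δ/Δep replicate 3, Pnldc1 was not called, with an adjusted p of up to 0.088 in edgeR. Gtsf1l, a relative of Gtsf1, had 13, 2 and 1 counts in control and 59, 80 and 134 in Dnmt1Δ/Δep libraries (log2 fold change 3.99, SE 0.66). Among the control libraries only replicate 1 reached the minimum count of 10. Gtsf1l thus needed the Dnmt1Δ/Δep libraries to pass the filter, and it too is given without a p. Tcfl5, a transcription factor that drives piRNA genes in spermatocytes, went from 4.12 ± 0.972 to 14.5 ± 2.78 CPM (SD, n = 3), with a log2 fold change of 1.82 (SE 0.23, adjusted p = 0.0041 in edgeR). Tcfl5 and Pnldc1 were the only upregulated genes of the list with a mean above 1 CPM in control libraries. Tex19.2, the paralogue of Tex19.1, had 0, 3 and 1 counts in control and 169, 228 and 344 in Dnmt1Δ/Δep libraries. Of the 50-base stretches of Tex19.1 transcripts, 2.67% are shared with Tex19.2, so the counts of the 2 genes rest on mostly separate sequence.

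The members of the list with the highest levels were not called, and they are genes that somatic cells also use. Hsp90aa1, a chaperone, had 432 ± 95.3 CPM in control libraries against 421 ± 57.8 CPM without Dnmt1 (SD, n = 3), which gave a log2 fold change of -0.04 (adjusted p = 0.94 in edgeR). Prmt5 and its partner Wdr77, which methylate arginines on PIWI and many other proteins, had log2 fold changes of -0.01 and 0.12 (adjusted p = 0.99 and 0.81 in edgeR). Tdrd3, a tudor protein found in many tissues, had a log2 fold change of -0.14 (adjusted p = 0.66 in edgeR). By adjusted p, Rnf17, Henmt1, Dnmt3l, Tdrd5, Tex15 and Morc1 lay between these and the called genes, with log2 fold changes from 1.28 to 1.86 and adjusted p from 0.072 to 0.15 in edgeR. With replicate number as a block, Rnf17, Henmt1, Dnmt3l and Tex15 were upregulated, with adjusted p from 0.0082 to 0.0477 in edgeR. Tdrd7 (log2 fold change 0.60), Pld6 (-1.14) and Mov10 (-0.44), with adjusted p from 0.14 to 0.31 in edgeR, lay there too. The genes of this group and the untested ones below were named after their values were seen. Of the 9 genes with too few reads to be tested, 6 had groups without overlap in CPM, all with the Dnmt1Δ/Δep libraries higher. Among tested genes, which have more reads, the share was 29.9% in either direction. The 6 were Piwil1 (4, 0 and 2 against 6, 13 and 16 counts), Piwil4 (2, 2 and 1 against 9, 9 and 21), Stk31 (0, 0 and 0 against 19, 8 and 34), Tdrd9, Btbd18 and Spocd1. Spocd1 (6, 6 and 3 against 4, 7 and 10 counts) was barely apart, at 0.0634 CPM in control replicate 1 and 0.0671 CPM in Dnmt1Δ/Δep replicate 1. Tdrd6 (13, 10 and 2 against 10, 3 and 10) and Dnmt3c (4, 2 and 2 against 0, 0 and 3) overlapped, and Gtsf2 had no read.

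**Figure D3:**
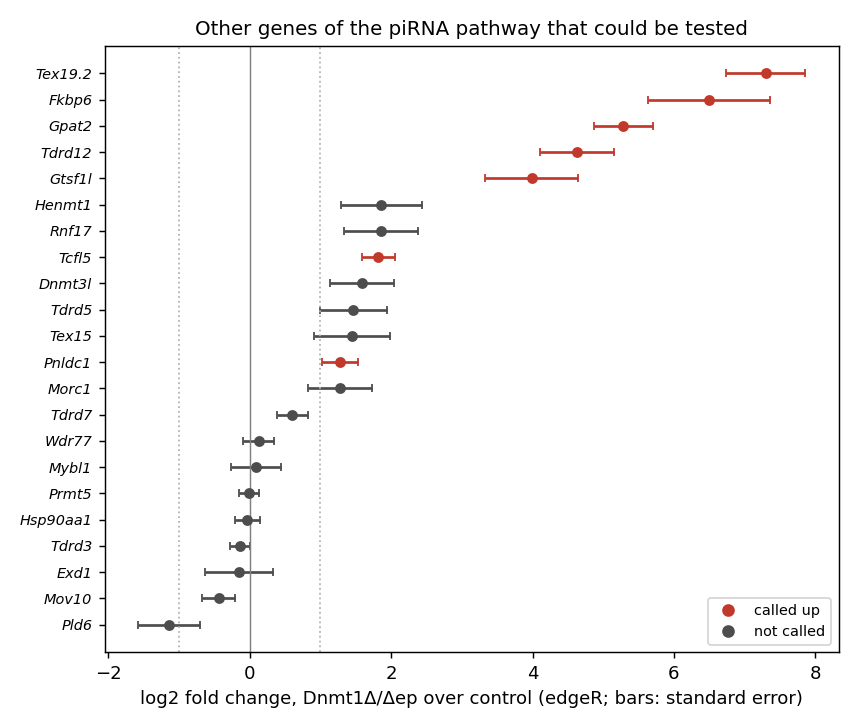
Log2 fold change of Dnmt1Δ/Δep over control keratinocytes (x axis, bars: standard error) for the 22 other piRNA pathway genes that could be tested, with upregulated genes in red, the rest in grey and dotted lines at a log2 fold change of 1 in size. The 7 red points run from 1.28 in Pnldc1 to 7.30 in Tex19.2, where the fitted size depends on few control reads, and Hsp90aa1, Prmt5, Wdr77 and Tdrd3 lie near 0.

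Genes of germ cell identity that are not part of the pathway were compared as well, with 32 on the list. Only 12 had enough reads to be tested, of which 3 were upregulated, 1 was downregulated and 8 were not called, beside 6.03% of all genes upregulated and 0.392% downregulated. With replicate number as a block 4 were upregulated, Kit being added (log2 fold change 1.18, adjusted p = 0.020 in edgeR). Without Dnmt1Δ/Δep replicate 1, only Gfra1 was upregulated. Stra8, which gates entry into meiosis, had no read in any control library and 29, 15 and 47 in Dnmt1Δ/Δep libraries, through which alone it passed the filter, so that its call is no test. Gfra1, a growth factor receptor of spermatogonial stem cells and of neurons, and Uchl1, a ubiquitin hydrolase of the same cells, had log2 fold changes of 1.94 (SE 0.31) and 1.72 (SE 0.32), with adjusted p = 0.011 and 0.017 in edgeR. Uchl1 was not called in 4 of the 6 fits that left out a library (without control replicate 2 or any one of the Dnmt1Δ/Δep libraries), with an adjusted p of up to 0.0778 in edgeR. Zbtb16, a zinc finger protein of spermatogonia that many other tissues also express, fell by 1.54 on the log2 scale (SE 0.26, adjusted p = 0.012 in edgeR), and its adjusted p was 0.0518 in edgeR without control replicate 2. Sohlh2, a transcription factor of early germ cells with 0, 0 and 0 counts in control and 3, 14 and 16 in Dnmt1Δ/Δep libraries, had too few reads to be tested. It was called without the filter and without control replicate 1. Without control replicate 2, control replicate 3 or Dnmt1Δ/Δep replicate 1 it was tested and not called. The oocyte genes Figla, Zp2 and Bmp15 and the male germ cell genes Nanos2, Tnp2 and Rbmy had a count of 0 in all 6 libraries. Sohlh2 and these genes were named after their values were seen. The 6 germ cell markers summed above are part of this list and hold none of its upregulated genes, and among them Nanos3 had the most reads, 8 to 23 in a library.

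The genes that are known to hold germline promoters silent were not called in either direction. Of 18 such genes, among them E2f6, Mga, Max, Pcgf6, L3mbtl2, Setdb1, Uhrf1, Dnmt3a and Dnmt3b, 0 were called in edgeR, beside 6.42% of all genes called in either direction, 0 in DESeq2 and 0 at an unadjusted p under 0.05 with the same fold. At that p without the fold there were 2, L3mbtl2 and Rnf2, both components of polycomb complexes, beside 23.6% of all genes, with log2 fold changes of -0.34 and -0.33. Over the 18 genes the log2 fold change ran from -0.34 to 0.22 with a median of -0.12. In the same libraries Dnmt1 fell by 2.83 on the log2 scale.

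The coding gene with the nearest start on either side was then examined, to see whether a difference extended beyond the gene itself. Of 20 flanking genes 13 had enough reads to be tested, and 2 of the 13 were called, beside 6.42% of all genes called in either direction. One was Tex19.2, which starts 27.5 kb from Tex19.1 on the other strand and is also on the piRNA pathway list. Tex19.2 passed the filter only through the Dnmt1Δ/Δep libraries, so that its call is no test. The other was Gpa33, which starts 108.5 kb from Mael and had 0.214 ± 0.0835 CPM in control libraries against 0.825 ± 0.271 CPM where Dnmt1 was deleted (SD, n = 3), a log2 fold change of 1.93 (SE 0.43, adjusted p = 0.035 in edgeR). With replicate number as a block the adjusted p of Gpa33 was 0.055 in edgeR, and in 5 of the 6 fits that left out a library Gpa33 was not called. The median log2 fold change of the 13 flanking genes was 0.01. Both flanks of Asz1 had more reads in the Dnmt1Δ/Δep libraries. Cftr had a log2 fold change of 1.50 (adjusted p = 0.061 in edgeR) and was called with the replicate block (adjusted p = 0.0349 in edgeR) and in DESeq2 (adjusted p = 0.020). Wnt2, with 0, 1 and 0 counts in control and 13, 5 and 11 in Dnmt1Δ/Δep libraries, had too few reads to be tested and was called without the filter. The count of flanking genes called was 3 in DESeq2 and 3 without the filter. Beside Piwil2, Slc39a14 had an adjusted p of 0.0086 in edgeR but a log2 fold change of 0.67, below the threshold, and Polr3d on the other side had -0.03. Gtsf2, a relative of Gtsf1 next to it, had no read in any library. Ccdc186, whose start is 4.0 kb from that of Tdrd1 on the other strand, had a log2 fold change of 0.01 (adjusted p = 0.98 in edgeR).

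**Figure D4:**
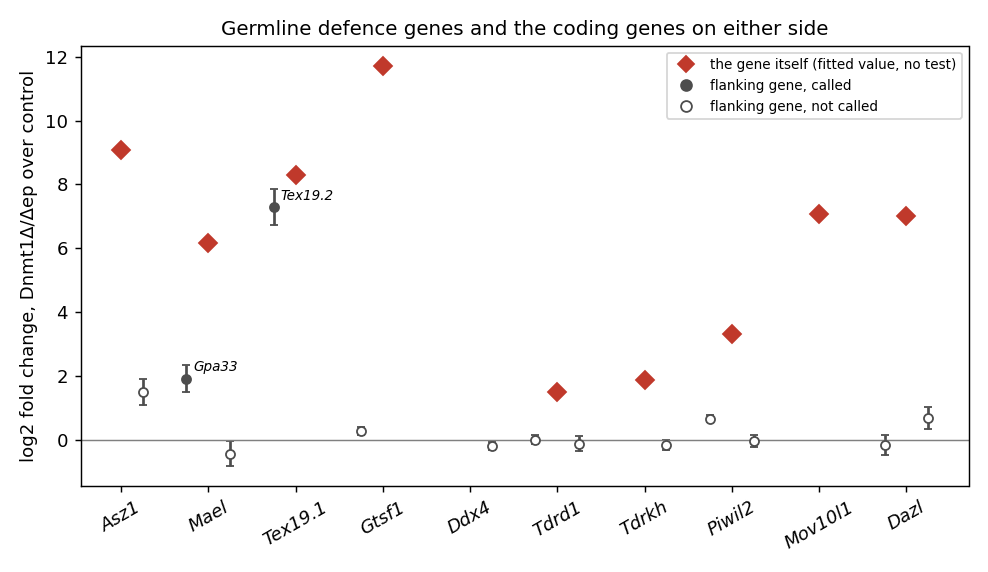
Log2 fold change of Dnmt1Δ/Δep over control keratinocytes for the germline defence genes (diamonds, fitted values without a test) and for the coding gene on either side where it could be tested (circles, filled where called, bars: standard error). Of the 13 flanking genes only Tex19.2 and Gpa33 are filled, while the diamonds of Asz1, Mael, Gtsf1, Mov10l1 and Dazl depend on how a control level near 0 is treated, and Ddx4 has no diamond.

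Reads of the retroelements that the pathway targets in germ cells were set beside the genes. Intracisternal A-type particles (IAP) are endogenous retroviruses that are mobile in mice, and L1Md elements are mouse LINE-1 families. A read that matches many copies is assigned to a repeat name and not to a place in the genome, and the same read may also be counted on a gene. Repeat names starting with IAP took 0.170, 0.150 and 0.263 reads per 100 gene reads in control libraries 1, 2 and 3. In Dnmt1Δ/Δep libraries 1, 2 and 3 they took 9.01, 8.32 and 8.85 per 100 gene reads, so that the mean went from 0.194 ± 0.0606 to 8.73 ± 0.363 (SD, n = 3), a ratio of 45.0. As a share of repeat reads they took 1.39%, 1.69% and 2.85% in control and 32.1%, 36.6% and 35.7% in Dnmt1Δ/Δep libraries, a log2 ratio of 4.14 where that per gene read was 5.49. Of 24 IAP names 21 were past the thresholds upward, beside 8.21% of all 938 repeat names tested. The 3 with the most reads, IAPEz-int, IAPLTR3-int and IAPLTR1_Mm, had log2 fold changes of 5.29, 5.27 and 4.66. Among the Dnmt1Δ/Δep libraries, IAP reads were highest in replicate 1 and lowest in replicate 2 per gene read, and highest in replicate 2 and lowest in replicate 1 per repeat read. Of the 10 germline genes, replicate 3 was the highest for 8 and replicate 2 the lowest for 8.

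L1Md reads differed far less than IAP reads between the groups, and their direction depended on the scale. The 6 L1Md names took 0.524, 0.366 and 0.342 reads per 100 gene reads in control and 0.947, 0.628 and 0.664 in Dnmt1Δ/Δep libraries, a ratio of means of 1.82, but as a share of repeat reads they took 4.29%, 4.13% and 3.70% in control and 3.37%, 2.76% and 2.67% in Dnmt1Δ/Δep libraries. On both scales the groups did not overlap, with Dnmt1Δ/Δep libraries higher on the first and lower on the second, where IAP reads are part of the total. Among repeat reads outside IAP, a scale added after seeing the data, L1Md names took 4.35%, 4.20% and 3.81% in control and 4.96%, 4.36% and 4.16% in Dnmt1Δ/Δep libraries, and the groups overlapped. All repeat reads together came to 8.87 to 12.2 per 100 gene reads in control and 22.7 to 28.1 in Dnmt1Δ/Δep libraries. Of the 6 names 1 was past the thresholds, L1Md_F2, at a log2 fold change of 1.12 relative to all repeat names and 1.47 relative to gene reads. L1Md_A and L1Md_F3, the next in reads, had -0.40 and 0.04 relative to all repeat names and -0.06 and 0.41 relative to gene reads. The median of all repeat names was -0.05 on the first of these scales and 0.33 on the second.

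**Figure D5:**
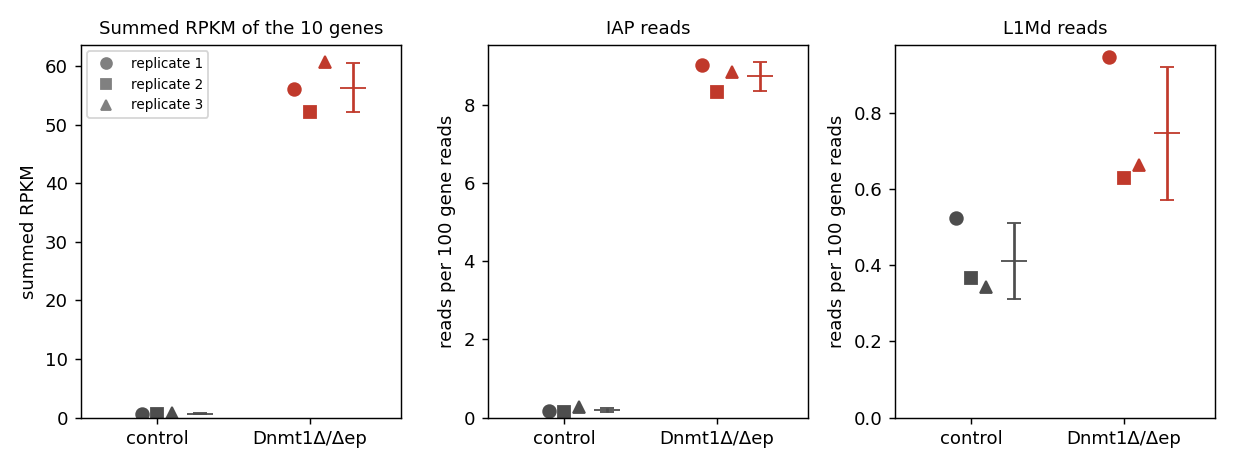
Summed RPKM of the 10 germline defence genes (left), IAP reads per 100 gene reads (middle) and L1Md reads per 100 gene reads (right) in each control (grey) and Dnmt1Δ/Δep (red) library, with the mean and SD of 3 libraries. The sums of the genes lie at 0.605 to 0.808 and 52.2 to 60.6 RPKM, IAP reads at 0.150 to 0.263 and 8.32 to 9.01, and L1Md reads at 0.342 to 0.524 and 0.628 to 0.947.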

How the data were processed

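Poly(A)-selected RNA of 6 keratinocyte cultures was sequenced. After trimming and removal of ribosomal reads, the authors used STAR for alignment and htseq-count for reads per gene, and assigned reads to repeat names with bowtie and RepEnrich, so that both deposited tables hold raw counts. The labels name GRCm38, whereas the paper's text names a human build for the gene alignment and MGSCv37 for repeats, so the positions printed, from GENCODE M21 and RefSeq on GRCm38, describe the genes only. The culture time is 5 days in the labels and methods and 72 h in a legend. The deposited tables of the authors' own comparisons (log2 fold changes and p-values) and 12 columns of normalized counts per library in them were not used. The 5 entries of the gene table that name no gene hold 8.73% to 12.88% of its reads and were left out.

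The quasi-likelihood test of edgeR was run on the counts (TMM, filterByExpr with minimum counts of 10 and 15, 3 against 3 libraries, no block), and p-values were adjusted (Benjamini-Hochberg) over all genes or all repeat names. Standard errors were taken by dividing the absolute log2 fold change by the root of F. CPM are counts over library size times TMM factor, and RPKM used the length of the merged exons. A count of 0 allows up to 3 counts, 0.0254 to 0.0558 CPM. Ratios of pooled counts carry exact (Clopper-Pearson) 95% intervals. Each library is from its own mouse. Of 43629 gene identifiers 42462 matched a symbol. On simulated data with a log2 size of 2, the test recovered 184 of 200 changed genes with 5 false calls. For repeat names it recovered 50 of 50 with 0 false calls. Recovery among genes with few control reads was not tested separately. Alternatives were DESeq2, its size factors in edgeR, no filter, the replicate block, each library left out, and for repeats library sizes from gene counts. Software comprised DESeq2 1.42.0 and edgeR 4.0.16 in R 4.3.3, and Python 3.11.15, pandas 2.3.3, scipy 1.17.1 and matplotlib 3.10.9.

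Replicate numbers pair the libraries. Libraries of one number share 1 of 3 flow-cell lanes in the table's header, and their deviations from the group means correlated across genes (r = 0.431, 0.279 and 0.300) and repeat names (0.631, 0.483 and 0.458).

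The 10 genes and the lists were chosen with earlier results of these data known. Named are the 10 genes, Dnmt1, each called gene of a list or flank, the 4 uncalled piRNA genes with the highest CPM, and the 3 IAP and 3 L1Md names with the most reads. Genes named outside this rule were chosen after their values were seen.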

Additional observations from a re-analysis of the deposited data

How the results depend on the processing

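Upregulated genes numbered 1014, 559 to 1183 with a library left out (559 without control replicate 2, 591 without Dnmt1Δ/Δep replicate 1) and 552 among genes with a mean of at least 1 CPM, a limit added after seeing the data. Downregulated genes numbered 66, 116 in DESeq2, 107 without the filter and 15 to 180 with a library left out (180 without control replicate 1, and 15 when either Dnmt1Δ/Δep replicate 1 or control replicate 2 was dropped). Of the other piRNA pathway genes 7 were upregulated, 11 in DESeq2, 12 without the filter, 11 with the replicate block, 4 among genes with a mean of at least 1 CPM and 6 to 11 with a library left out. Of these 7 genes 6 were called under each of 10 alternatives and Pnldc1 under 7, with an adjusted p of up to 0.088 across edgeR and DESeq2. Of the 6, Tdrd12, Tex19.2, Fkbp6 and Gpat2 passed the filter only through the Dnmt1Δ/Δep libraries, so their repeated calls are no test. Gtsf1l reached the minimum count in control replicate 1 alone. Of the germ cell identity genes 3 were upregulated, 5 without the filter, 1 without Dnmt1Δ/Δep replicate 1 and 2 to 4 with another library left out. The flanking genes called were 2, and 1 to 2 with a library left out, Gpa33 being lost in 5 of 6 such fits. The call of the other, Tex19.2, is no test, as said above. Repeat names downregulated were 0, and 1 without control replicate 1. Of the 10 germline defence genes 9 were past the thresholds, beside 6.03% of all genes tested, and 8 to 9 over the alternatives. These values chose the genes, so neither count is a test or a measure of stability. Tdrkh was lost on its adjusted value without control replicate 2, control replicate 3, Dnmt1Δ/Δep replicate 1 or Dnmt1Δ/Δep replicate 3. Its log2 fold change there was 1.65 to 2.02. The log2 ratio of IAP reads was 5.49 per gene read and 4.14 per repeat read, and 5.33 to 5.77 with a library left out. For L1Md reads it was 0.86 per gene read and -0.46 per repeat read, 0.125 per repeat read outside IAP, and 0.65 to 1.07 with a library left out. With the replicate block, which the shared lanes bear on, the 11 piRNA pathway genes add Rnf17, Henmt1, Tex15 and Dnmt3l, and of the flanking genes Gpa33 is lost and Cftr, beside Asz1, is called, while Kit joins the germ cell identity genes called. Depth limits Ddx4, 9 of the 31 other piRNA pathway genes and 20 of the 32 germ cell identity genes, which had too few reads to be tested, and 3 libraries a group limit every comparison.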
